A study of Homo sapiens with 24 samples.

Results

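The response of 2 acute myeloid leukaemia cell lines to the compound AZ2 was compared gene by gene. For each gene the change from DMSO to AZ2 in MOLM14 was subtracted from the same change in OCI-AML2, on the log2(value + 1) scale, and the result is called the line difference. A line difference below 0 means that the gene went lower with AZ2 in OCI-AML2 than in MOLM14. Genes entered when they reached 10 normalized estimated reads in at least 4 libraries of each line, which kept 14287 of 35587 gene symbols. The contrast draws on 16 of the 24 libraries. The filter tested no difference between groups, but it counted all libraries of a line, including those with ARM165, a second compound. A gene could therefore enter through 1 treatment group. Of the genes kept, 88 had no DMSO or AZ2 group mean of at least 10. The same filter on the 16 libraries alone kept 13479 genes.

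RNA was measured after 24 h of treatment in 6 groups of 4 libraries: MOLM14 with DMSO, AZ2 or ARM165, and OCI-AML2 with the same treatments. DMSO is the solvent control. Doses, the origin of the replicates and the identity of the degrader in the series title are not given in the sources used here, so p-values reflect only how these libraries vary, and that variation may be technical. Both are established human lines, and MOLM14 carries an internal tandem duplication in FLT3. Of 10 myeloid markers, CD33, SPI1, CEBPA, LYZ, CSF2RA, FLT3 and PTPRC were abundant in both lines. With DMSO, MPO averaged 20.4 and ITGAM 10.6 normalized reads in OCI-AML2, and CD14 averaged 10.7 in MOLM14. Some markers of other cell types were abundant, such as NCAM1 in both lines and KRT18 in MOLM14 (1917 with DMSO). The filter kept 9 of 10 myeloid, 3 of 8 T and NK and 3 of 6 B cell markers. It kept 1 of 9 erythroid and megakaryocyte markers and 2 of 8 epithelial and fibroblast markers. Of those kept in the 5 lists, 0 differed in the response at an unadjusted p under 0.05.

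AZ2 is known as a selective inhibitor of PI3K gamma, a lipid kinase of blood cells that acts upstream of AKT. AKT and mTORC1 signalling is one of several inputs to the SREBP transcription factors, which switch on the genes of cholesterol and fatty acid synthesis. SCAP carries SREBP from the endoplasmic reticulum to the Golgi for cleavage, and INSIG proteins hold SCAP back when sterols are plentiful. The mevalonate branch builds squalene from acetyl-CoA through isoprenoid intermediates, and the ring enzymes then turn squalene into cholesterol.

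The genes called for a line difference were genes of cholesterol synthesis and its control. By limma, 4 genes had a line difference at an adjusted p under 0.05, which is 0.028% of those tested, and all 4 were below 0. They were HMGCS1, IDI1 and FDFT1, which encode enzymes on the way to squalene, and INSIG1, which encodes the retention protein of SCAP. Above 0, 0 genes were called, while an unadjusted p under 0.05 was found for 746 genes (5.22%), 374 below 0 (2.62%) and 372 above 0 (2.6%). With sequencing depth as a covariate, 0 genes were called in either direction. In OCI-AML2 alone, 31 genes (0.217%) passed the test with AZ2, 26 lower (0.182%) and 5 higher (0.035%). In bulk RNA, less of a transcript per cell and fewer cells making it cannot be told apart. In MOLM14 alone, 0 genes (0.0%) passed and 688 (4.82%) had an unadjusted p under 0.05.

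HMGCS1 encodes the cytosolic synthase that makes HMG-CoA. In OCI-AML2 its normalized reads were 1304, 1425, 1188 and 1261 with DMSO and 695, 759.5, 649 and 809.8 with AZ2. In MOLM14 they were 1735, 1728, 1942 and 1828 with DMSO and 1591, 1599, 1610.2 and 1598 with AZ2. In both lines every AZ2 library lay below every DMSO library, by a wide gap in OCI-AML2 and a narrow one in MOLM14. In OCI-AML2 HMGCS1 fell by 43.8% (log2 change -0.83 ± 0.071, where ± gives the SE of a log2 value here and below, adjusted p = 5.04e-07 by limma). The change in MOLM14 was -0.18 ± 0.071, with an unadjusted p of 0.0220 and an adjusted p of 0.990. The line difference was -0.66 ± 0.10 (95% interval -0.86 to -0.45, adjusted p = 0.0174).

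IDI1 encodes isopentenyl diphosphate isomerase, which makes the second of the building blocks that are joined into longer isoprenoids. In OCI-AML2 its normalized reads were 4134, 4764, 4085 and 4113 with DMSO and 3074, 3125, 2806 and 3113 with AZ2. In MOLM14 they were 2944, 3104, 3108 and 3194 with DMSO and 3362, 3006, 3129 and 3197 with AZ2. The OCI-AML2 groups did not overlap, while the MOLM14 groups did. In OCI-AML2 IDI1 fell by 29.0%, and its MOLM14 change was 0.039 ± 0.066. The line difference was -0.53 ± 0.094 (95% interval -0.73 to -0.34, adjusted p = 0.0388 by limma).

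FDFT1 encodes squalene synthase, the step that commits the pathway to sterols. In OCI-AML2 its normalized reads were 7625, 8435, 7299 and 7610.5 with DMSO and 5422, 5401, 5014 and 6034 with AZ2. In MOLM14 they were 3476, 3310.2, 3626 and 3502 with DMSO and 3366, 3199.7, 3669.6 and 3711 with AZ2. Again the OCI-AML2 groups were apart and the MOLM14 groups overlapped. In OCI-AML2 FDFT1 fell by 29.4%, against a MOLM14 change of 0.0013 ± 0.065. The line difference was -0.50 ± 0.092 (95% interval -0.69 to -0.31), and its adjusted p of 0.0480 by limma was the closest to the threshold among the 4.

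INSIG1 is itself a target of SREBP and so belongs to the feedback of the pathway. In OCI-AML2 its normalized reads were 5274, 5556, 4819 and 5039 with DMSO and 3455, 3419, 3008 and 3378 with AZ2. In MOLM14 they were 3680.5, 3381, 3609.9 and 3733 with DMSO and 3395, 2971, 3482 and 3123 with AZ2. The OCI-AML2 groups were apart, and in MOLM14 the groups overlapped. In OCI-AML2 INSIG1 fell by 35.9%. The change in MOLM14 was -0.15 ± 0.060 (unadjusted p = 0.0181, adjusted p = 0.943 by limma). The line difference was -0.49 ± 0.085 (95% interval -0.66 to -0.31, adjusted p = 0.0388).

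**Figure D1:**
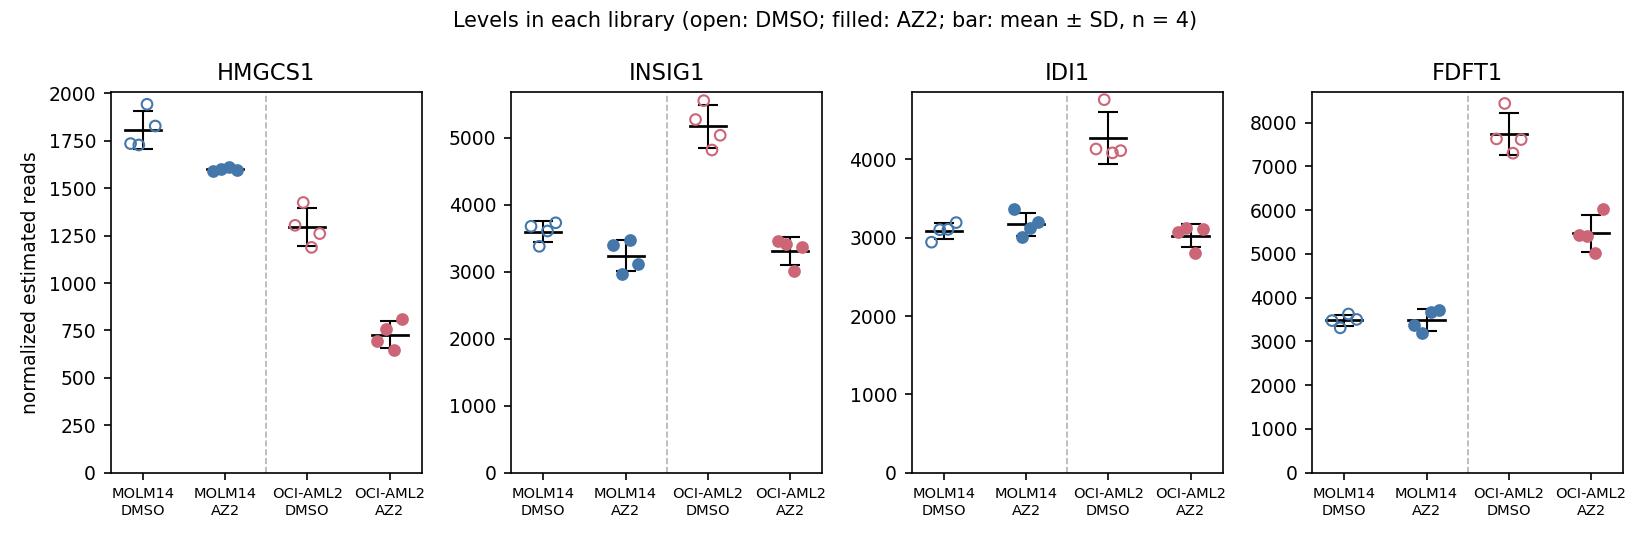
Normalized estimated reads (linear axis from 0) of HMGCS1, INSIG1, IDI1 and FDFT1 in each of 16 libraries, with mean ± SD (n = 4) per group. AZ2 libraries lie below all DMSO libraries for each gene in OCI-AML2, and in MOLM14 for HMGCS1 alone; heights are not comparable between lines, whose tables were scaled separately.

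Promoters are shown because the called genes fell together in OCI-AML2 and are known SREBP targets. Those of HMGCS1, INSIG1 and IDI1 were matched in the RefSeq promoter table; the other called gene is FDFT1. SREBP binds sterol regulatory elements, usually beside a CCAAT box bound by NF-Y. Each window runs from 250 bases before to 50 bases after a transcription start, 5′ to 3′ on the gene's strand, from RefSeq on GRCh38.p14. Capitals mark the letters CCAAT or their reverse complement ATTGG. HMGCS1 is at chr5:43313363-43313662 (minus strand), INSIG1 at chr7:155297628-155297927 (plus strand) and IDI1 at chr10:1048837-1049136 (minus strand). For HMGCS1 and IDI1 the window with the most matches is printed, of 2 and 3 in the table.
HMGCS1: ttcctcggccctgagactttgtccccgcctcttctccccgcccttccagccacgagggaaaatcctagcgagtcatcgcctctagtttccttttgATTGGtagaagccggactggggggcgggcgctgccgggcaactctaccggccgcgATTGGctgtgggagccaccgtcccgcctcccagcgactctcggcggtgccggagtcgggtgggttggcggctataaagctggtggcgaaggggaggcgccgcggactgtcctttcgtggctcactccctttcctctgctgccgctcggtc
INSIG1: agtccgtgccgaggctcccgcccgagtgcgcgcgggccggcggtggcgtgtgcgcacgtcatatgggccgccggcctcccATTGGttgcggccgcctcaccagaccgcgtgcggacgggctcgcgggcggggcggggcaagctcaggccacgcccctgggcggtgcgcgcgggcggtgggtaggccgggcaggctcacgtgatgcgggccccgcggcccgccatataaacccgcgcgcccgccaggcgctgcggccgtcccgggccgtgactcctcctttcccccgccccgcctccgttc
IDI1: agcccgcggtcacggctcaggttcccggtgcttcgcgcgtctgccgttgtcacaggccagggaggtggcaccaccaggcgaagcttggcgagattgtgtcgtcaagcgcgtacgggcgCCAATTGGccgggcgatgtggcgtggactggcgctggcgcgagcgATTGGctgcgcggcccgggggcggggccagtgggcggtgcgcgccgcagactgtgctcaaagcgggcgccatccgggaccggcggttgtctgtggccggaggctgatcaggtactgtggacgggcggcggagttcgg
The HMGCS1 window holds 2 matches, the INSIG1 window 1, and the IDI1 window 3, of which the first and second overlap. The other HMGCS1 window holds 0, and the other IDI1 windows hold 0 and 2. Over all 35116 windows of the same length, 34.6% hold CCAAT on either strand. Among the sterol enzymes below, 17 had a window, and 14 of these (82.4%) hold CCAAT in at least 1 window, beside 43.1% of 10254 tested genes with a window. A gene with more windows has more chances of a match. Counted by window, 16 of the 24 sterol enzyme windows (66.7%) hold CCAAT. The letters TCACNCCAC, 1 form of the sterol regulatory element, were in 0 of the 24 sterol enzyme windows and in 1.13% of all windows. A match is a description of the letters and not a bound site.

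Most enzymes of the wider sterol pathway shared the direction of the called genes. Of 22 enzymes from acetyl-CoA to cholesterol, all kept, 21 had a line difference below 0, where 54.4% of all genes did. The line difference had an unadjusted p under 0.05 and was below 0 for 17 of the 22 (2.62% of all genes), and above 0 for 0 (2.6%). The 22 include the called genes HMGCS1, IDI1 and FDFT1. They were chosen with earlier results of these data known, so the counts are descriptions. The median line difference was -0.35, beside -0.016 over all genes. The median change was -0.44 in OCI-AML2 and -0.062 in MOLM14. The change was below 0 for 20 of the 22 in OCI-AML2, beside 8101 of all 14287 genes. In MOLM14 it was below 0 for 16 of the 22, beside 7065 of all genes. AZ2 libraries did not overlap DMSO and were lower for 16 of 22 in OCI-AML2 (1.43% of all genes) and for 2 of 22 in MOLM14 (2.67% of all genes), those being HMGCS1 and CYP51A1. For 14 of the 22 the OCI-AML2 libraries were apart in this way while the MOLM14 libraries overlapped, as they did for 1.37% of all genes. By limma, 12 of the 22 fell in OCI-AML2, where 0.182% of all genes fell. Other lists also had most line differences below 0: 19 of 20 DNA replication genes, 12 of 13 mitochondrially encoded mRNAs, 17 of 20 glycolysis genes, 17 of 20 ribosome biogenesis genes and 14 of 16 ER chaperones. The medians of these 5 lists lay between -0.099 and -0.046, with 3 members in all at an unadjusted p under 0.05.

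Among the 10 enzymes up to squalene, all 10 line differences were below 0, as were 54.4% over all genes, and the median was -0.46. ACAT2, which makes acetoacetyl-CoA, lay just outside the threshold. It fell in OCI-AML2 from 3131, 3600.4, 3401 and 3217 to 2213, 2351, 2162 and 2366 normalized reads, groups far apart, and in MOLM14 the groups of 3812 to 4285 and 3539.7 to 4173 overlapped. Its line difference was -0.49 ± 0.093 (adjusted p = 0.0536 by limma).

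Later enzymes of this branch varied more. MVK, mevalonate kinase, fell in OCI-AML2 from 982, 991, 963 and 988 to 655, 561, 599 and 758 normalized reads and had a line difference of -0.53 ± 0.18. The OCI-AML2 call of MVK held in 19 of 35 alternatives. MOLM14 libraries of MVK overlapped, at 1442 to 1818 with DMSO and 1438 to 1609 with AZ2. PMVK, the kinase that follows, had a line difference of -0.16 ± 0.10, with a 95% interval of -0.37 to 0.056. For MVD, which decarboxylates mevalonate diphosphate, it was -0.42 ± 0.14, with an OCI-AML2 change of -0.42 that did not pass (adjusted p = 0.0814 by limma). FDPS, farnesyl diphosphate synthase, fell in OCI-AML2 from 11215, 11835, 11787 and 11224 to 8414, 9043, 9424 and 9738. In MOLM14 its change was 0.013 ± 0.056, and the line difference was -0.35 ± 0.080 (unadjusted p = 0.000237, adjusted p = 0.339). GGPS1, which makes geranylgeranyl diphosphate on a side branch away from sterols, had changes of 0.092 in MOLM14 and 0.015 in OCI-AML2, and a line difference of -0.076 ± 0.082 (95% interval -0.25 to 0.092).

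Among the 12 enzymes from squalene to cholesterol, 11 line differences were below 0, as were 54.4% over all genes. Their median was -0.31. Of the 12, 9 were below 0 at an unadjusted p under 0.05, beside 2.62% of all genes. In MOLM14 the AZ2 change was below 0 for all 12, beside 7065 of all 14287 genes. The MOLM14 median was -0.070, and 0 of the 12 had an unadjusted p under 0.05 there. MSMO1, a methyl sterol oxidase, fell in OCI-AML2 from 1227, 1387, 1109.8 and 1270.2 to 836, 789, 723 and 888 normalized reads. In MOLM14 its libraries overlapped at 865 to 1001 and 769.7 to 880.0. Its line difference was -0.49 ± 0.11 (adjusted p = 0.372 by limma), the lowest value of the ring enzymes. CYP51A1, the lanosterol demethylase, fell in OCI-AML2 from 2520.2, 2954, 2235 and 2439.6 to 1766, 1845, 1698 and 1652. In MOLM14 its values were 2656, 2655, 2721 and 2526 with DMSO and 2487, 2189, 2456 and 2362 with AZ2, groups that were close but did not overlap. The line difference of CYP51A1 was -0.38 ± 0.11 (adjusted p = 0.568).

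Other ring enzymes had line differences from -0.39 to 0.14. They were -0.31 ± 0.15 for SQLE, the squalene epoxidase, and -0.31 ± 0.15 for LSS, which closes the ring to lanosterol. For HSD17B7 and NSDHL, which act in the removal of methyl groups, they were -0.34 ± 0.15 and -0.33 ± 0.098. For EBP and SC5D, which move and add double bonds, they were -0.27 ± 0.10 and -0.22 ± 0.15. With depth as a covariate SC5D was at -0.026. For DHCR7, a late reductase, it was -0.39 ± 0.15. DHCR7 and NSDHL fell in OCI-AML2, by 0.52 and 0.33 on the log2 scale (adjusted p = 0.0375 and 0.0427 by limma), calls that held in 18 and 16 of 35 alternatives. The sterol reductases TM7SF2 and LBR do the same step. TM7SF2 had a line difference of 0.14 ± 0.23 and was the 1 enzyme above 0, and LBR had -0.085 ± 0.086. Both intervals include 0, as does that of SC5D (-0.53 to 0.077).

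**Figure D2:**
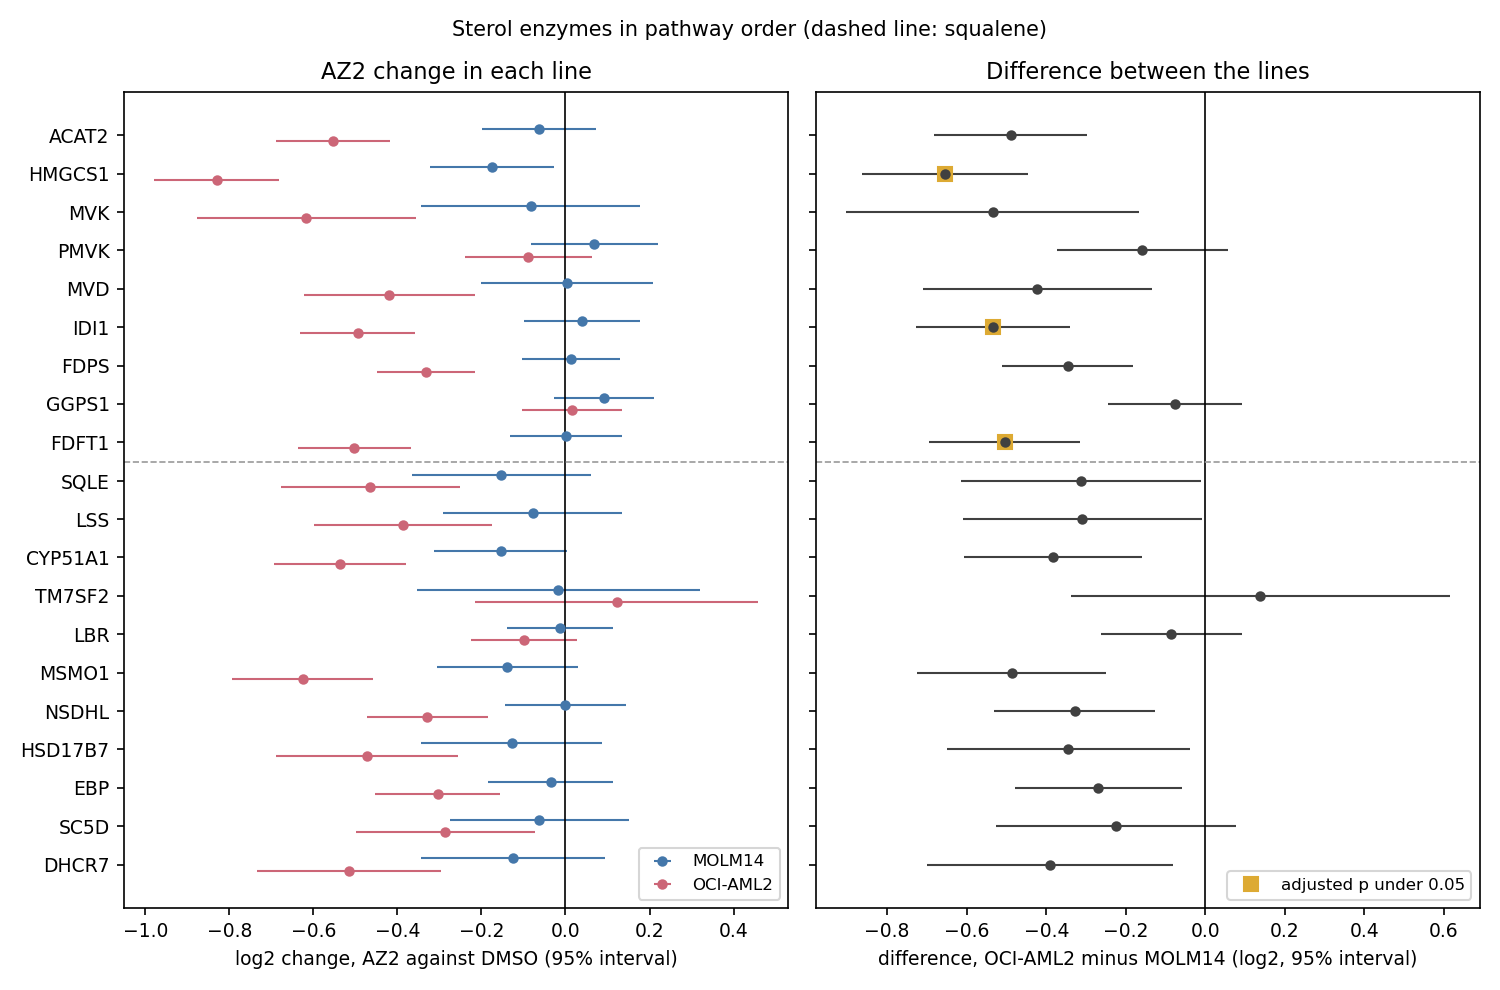
Log2 changes with AZ2 in MOLM14 (blue) and OCI-AML2 (red), left, and the line difference, right, for 20 of the 22 sterol enzymes in pathway order, with 95% intervals; gold squares mark the 3 enzymes called. Of the line differences drawn, 19 of 20 lie below 0; over all 22 enzymes the median change was -0.44 in OCI-AML2 and -0.062 in MOLM14.

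The median level of the sterol enzymes was lower in each OCI-AML2 library with AZ2. For each library the median over the 22 enzymes was taken of the log2 level relative to the DMSO mean of its own line. With AZ2 these medians were -0.47, -0.41, -0.50 and -0.36 in OCI-AML2 replicates 1 to 4 and -0.029, -0.11, -0.0091 and -0.090 in MOLM14. With DMSO they were -0.0094, 0.11, -0.072 and -0.036 in OCI-AML2 and -0.027, -0.033, 0.037 and 0.034 in MOLM14. By this median all 4 OCI-AML2 AZ2 libraries were below every other library, while the MOLM14 AZ2 and DMSO libraries overlapped. In OCI-AML2 AZ2 replicates 1 to 4, 21, 20, 19 and 20 of the 22 enzymes were below 0. In MOLM14 AZ2 replicates 1 to 4, 12, 20, 11 and 15 were. Across the 22 enzymes the change in MOLM14 and the change in OCI-AML2, which share no library, had a Pearson r of 0.69. Over all 14287 genes r was -0.042. The 22 were chosen with earlier results known. The value over all genes includes low, variable genes with MOLM14 changes down to -6.12, so it is not a like comparison. Genes are not independent replicates, and the enzymes of 1 line share the same libraries.

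Sequencing depth moved with the contrast. Estimated reads averaged 49.99 M with DMSO and 37.9 M with AZ2 in MOLM14, without overlap, and 40.1 M with DMSO and 47.6 M with AZ2 in OCI-AML2, with overlap. Within the OCI-AML2 AZ2 group the depths were 36.9, 58.0, 54.7 and 40.8 M in replicates 1 to 4. With depth as a covariate in limma, 0 genes were called in the line difference. The median SE was then 1.20 times as large, and an unadjusted p under 0.05 was found for 1049 genes. HMGCS1 then had a line difference of -0.58 (adjusted p = 0.173), INSIG1 -0.43 (0.343), IDI1 -0.49 (0.341) and FDFT1 -0.48 (0.341). The median over the enzymes was -0.36.

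The number of calls depended on single libraries. The number of genes called was 0 in 7 of 24 fits that each left out 1 library. These were the fits without OCI-AML2 AZ2 replicate 1 or 3, OCI-AML2 DMSO replicate 1, MOLM14 AZ2 replicate 3, or MOLM14 DMSO replicate 1, 2 or 4. It was 1 without OCI-AML2 ARM165 replicate 1 or 3 or OCI-AML2 DMSO replicate 4. It was 2 without MOLM14 AZ2 replicate 1 or 4 or OCI-AML2 DMSO replicate 2, and it reached 7 without MOLM14 DMSO replicate 3. Over 35 alternatives HMGCS1 was called in 27, IDI1 in 20, INSIG1 in 19 and FDFT1 in 18. Each of the 4 kept a line difference below 0, and its call in OCI-AML2, in 35 of 35.

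**Figure D3:**
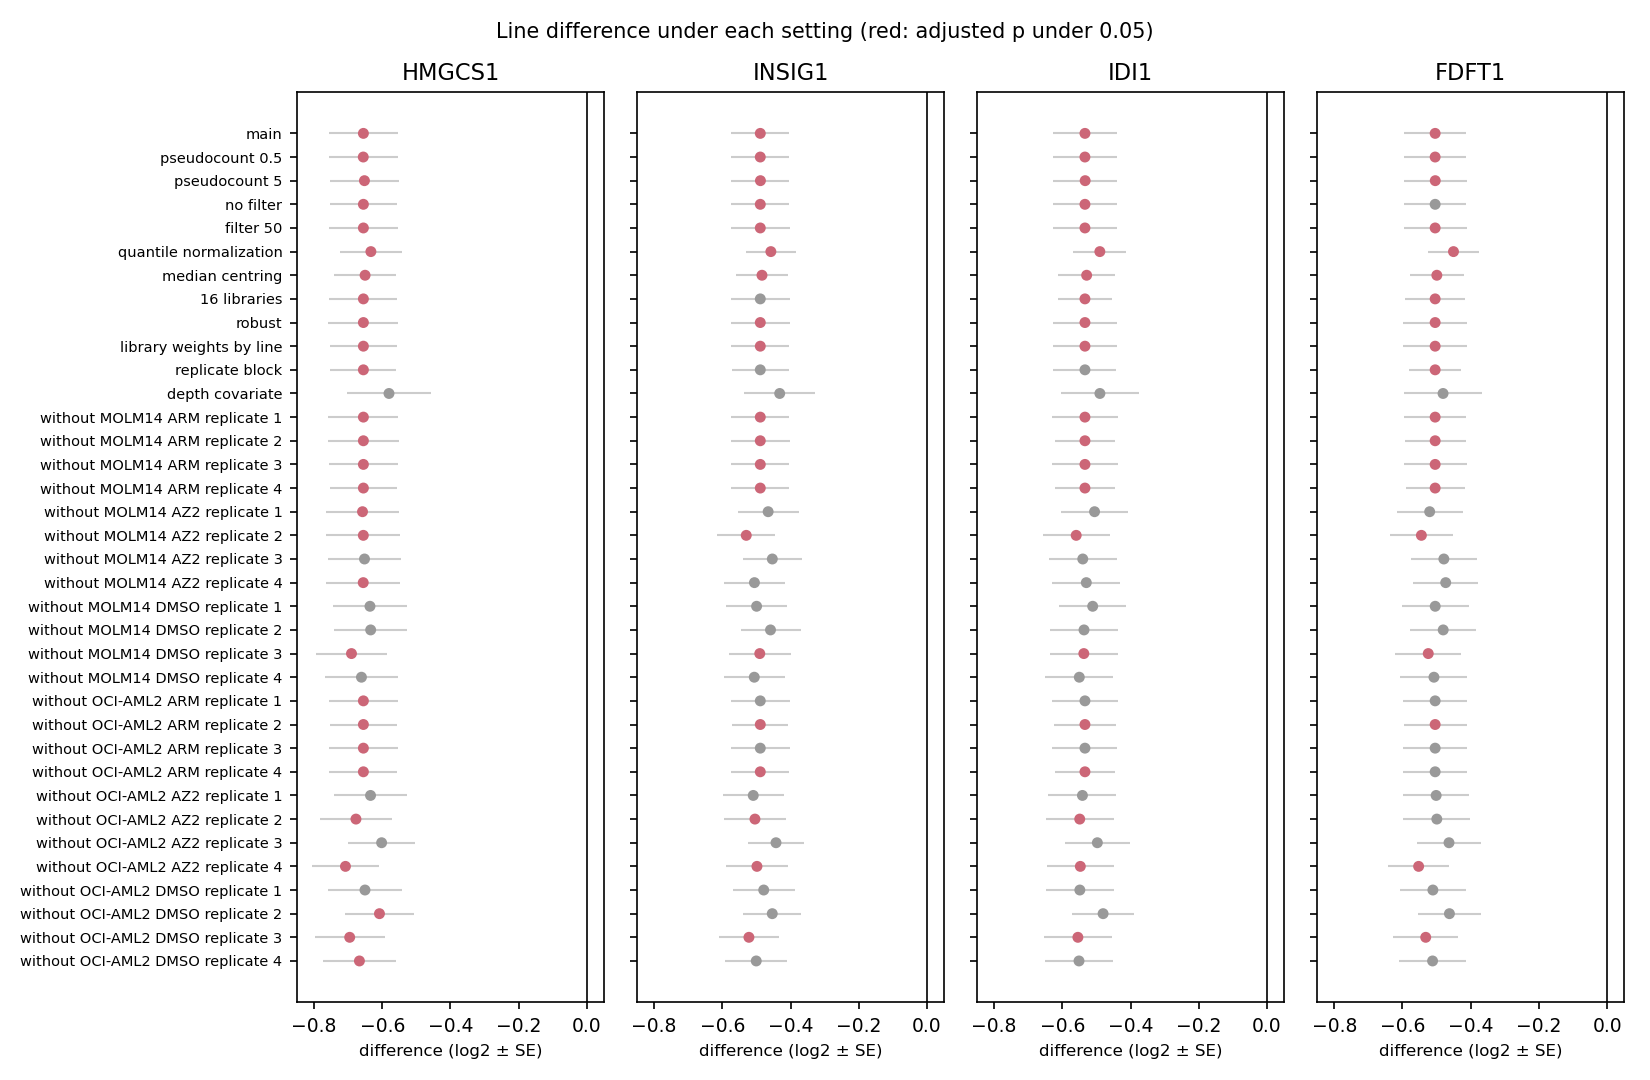
Line difference (log2 ± SE) of the 4 called genes under the settings of the reported analysis (top row, main) and 35 alternatives, with red points where the limma adjusted p was under 0.05. HMGCS1 is red in 27 of the 35 alternatives and FDFT1 in 18, and every point lies below 0.

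Of 7 genes that control SREBP, INSIG1 was called and the other 6 were not. SREBF2, which encodes the factor for sterol genes, had normalized reads of 1532, 1373, 1458 and 1409.8 with DMSO and 1330.1, 1320.1, 1213 and 1156 with AZ2 in OCI-AML2. In MOLM14 the values were 1749 to 1886 and 1599 to 1779. The OCI-AML2 groups did not overlap and the MOLM14 groups did, but neither the OCI-AML2 change of -0.20 ± 0.061 (adjusted p = 0.331 by limma) nor the line difference of -0.13 ± 0.087 passed. SREBF1, whose product acts mostly on fatty acid genes, had a line difference of 0.016 ± 0.14. For SCAP it was -0.0058 ± 0.13, and for INSIG2, the relative of INSIG1, 0.042 ± 0.15. For the proteases that cleave SREBP it was 0.067 ± 0.090 (MBTPS1) and -0.050 ± 0.14 (MBTPS2). The signs of SREBF1, SCAP and MBTPS2 reversed with depth as a covariate. The median of the 7 genes was -0.0058.

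Among fatty acid genes, those with the smallest p for the line difference were desaturases. Of 20 genes, 3 had a line difference with an unadjusted p under 0.05, all below 0, and 0 were called. Of all genes, 2.62% were below 0 at such a p. FADS2, a polyunsaturated fatty acid desaturase, fell in OCI-AML2 from 1687, 1603, 1611 and 1529 to 956, 948, 851 and 936 normalized reads. The MOLM14 values were 941, 1042, 1110.2 and 1185 for DMSO and 935, 888, 917 and 1003 for AZ2. The OCI-AML2 groups were far apart and the MOLM14 groups overlapped. The line difference of FADS2 was -0.61 ± 0.19 (unadjusted p = 0.00314, adjusted p = 0.640 by limma). In OCI-AML2 SCD, the stearoyl-CoA desaturase, fell by 25.7%, and it did not overlap in either line, at 61883 to 68394 with DMSO and 56084 to 60651 with AZ2 in MOLM14. Its line difference was -0.29 ± 0.072 (adjusted p = 0.489). FADS1, the third, had -0.32 ± 0.12, and the synthase genes ACACA and FASN had 0.093 ± 0.16 and -0.024 ± 0.16. The median of the 20 was -0.088.

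The rest of sterol biology showed less. Of 9 measured uptake and transport genes, 1 had an unadjusted p under 0.05, where 5.22% of all genes did: LRPAP1, a chaperone of lipoprotein receptors, at -0.18 ± 0.086. Of 6 measured efflux, esterification and LXR genes, 1 had an unadjusted p under 0.05, the receptor gene NR1H2 at -0.17 ± 0.080. The interval of ABCA1, the cholesterol exporter, was -0.52 to 1.53. Of 13 genes that use isoprenoids, such as the prenyltransferase subunit PGGT1B (-0.37 ± 0.18), 0 had an unadjusted p under 0.05. MMAB, an enzyme of cobalamin metabolism whose gene shares a promoter region with MVK, had -0.37 ± 0.095 (unadjusted p = 0.000650, adjusted p = 0.489 by limma).

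No line difference was detected for transcripts of the PI3K and AKT pathway itself. Of 22 components, 0 had an unadjusted p under 0.05 (5.22% of all genes) and 11 were below 0 (54.4% of all genes). Their median was 0.00077. PIK3CG, the gene of the PI3K gamma catalytic subunit, had a line difference whose 95% interval was -0.098 to 0.26. The intervals were -0.12 to 0.35 for PIK3R5 and -0.80 to 0.73 for PIK3R6, its regulatory subunits. They were -0.13 to 0.23 for AKT1 and -0.24 to 0.14 for AKT2. The PIK3R6 interval is wide enough to hold large differences in either direction. Of 20 FOXO-induced genes, which AKT activity holds down, 1 had an unadjusted p under 0.05, IRS2 at 0.22 ± 0.084, and the median was -0.0023. That share is near the 5.22% of all genes.

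**Figure D4:**
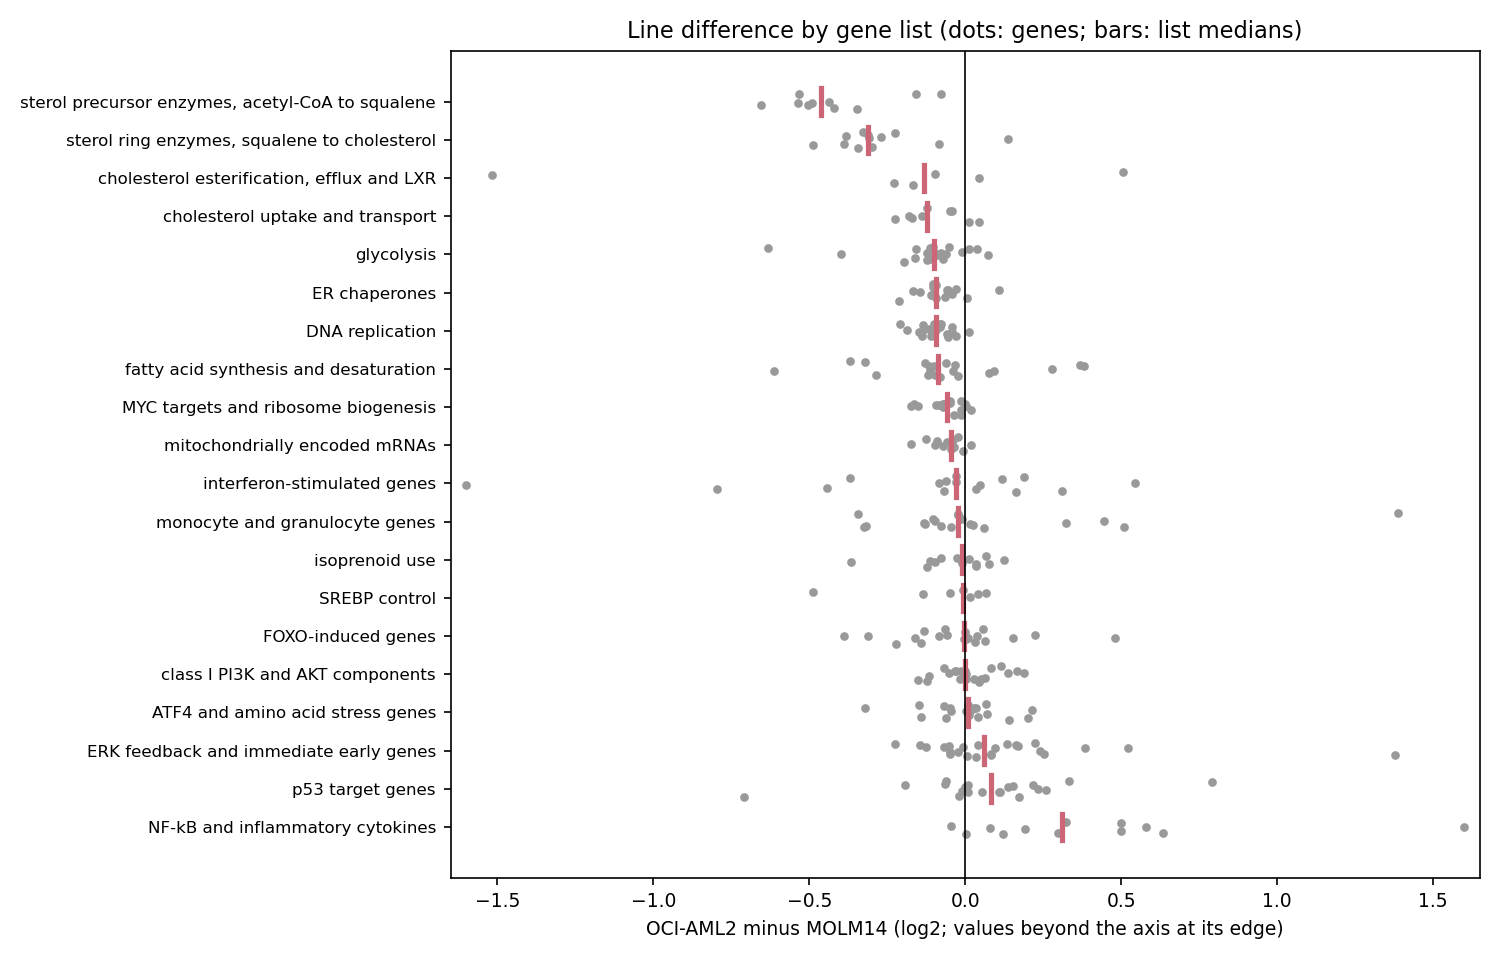
Line difference (log2) of each kept member (dots) and the median (red bar) of 20 gene lists. The sterol lists have medians of -0.46 and -0.31, and the NF-kB list lies at the other end with 0.31; values beyond the axis are drawn at its edge.

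The NF-kB and cytokine list had the highest median line difference of the 20 lists, at 0.31. Of its 12 measured members, 11 were above 0, beside 6522 of all 14287 genes. Of the 12, 3 were above 0 at an unadjusted p under 0.05, where 2.6% of all genes were, and 0 were called. IL1B, which encodes a secreted inflammatory cytokine, had normalized reads of 206, 276, 251 and 272 with DMSO and 287, 329.7, 326 and 294 with AZ2 in OCI-AML2. The MOLM14 values were 51.6, 43.8, 44.2 and 48.5 without and 38.7, 48.7, 32.8 and 30.9 with AZ2. The OCI-AML2 groups did not overlap and those of MOLM14 did. The line difference of IL1B was 0.63 ± 0.17 (unadjusted p = 0.00131, adjusted p = 0.568 by limma). NFKB2, a subunit of the non-canonical pathway, had 0.50 ± 0.17 and TRAF1, a receptor adaptor, 0.58 ± 0.21. With depth as a covariate NFKB2 was at 0.22 (unadjusted p = 0.239). NFKBIA, the inhibitor that NF-kB induces, was at -0.045 ± 0.092, the 1 member below 0. The changes of the list had a median of -0.26 in MOLM14 and 0.12 in OCI-AML2. In MOLM14, 5 of the 12 were lower with AZ2 at an unadjusted p under 0.05, beside 422 of all 14287 genes. In OCI-AML2, 1 of the 12 was higher at such a p, beside 382 of all genes.

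Immediate early genes of the ERK pathway had 2 of 24 measured members at an unadjusted p under 0.05, both above 0, where 5.22% of all genes were at such a p and 2.6% above 0. EGR1, a transcription factor, had normalized reads of 1506, 1509, 1640.0 and 1533 in OCI-AML2 DMSO libraries and 2196, 2036, 2241 and 2412 in AZ2 libraries, and 299.6 to 411 and 289 to 423 in MOLM14. The OCI-AML2 groups were apart and the MOLM14 groups overlapped. In the fit of all 24 libraries the OCI-AML2 change of EGR1 was 0.52 ± 0.17 (adjusted p = 0.406 by limma) and its line difference 0.52 ± 0.24 (adjusted p = 0.935), which was 0.24 with depth as a covariate (unadjusted p = 0.398). EGR3, its relative, had 1.38 ± 0.61 at low levels. Among 20 p53 targets, with a median of 0.082, 1 had an unadjusted p under 0.05, the cell cycle inhibitor CDKN1A at 0.26 ± 0.11, a share near that of all genes. The p53 median was 0.20 with depth as a covariate. AZ2 libraries lay below all DMSO libraries for 5 of the 20 p53 targets in MOLM14 (2.67% of all genes). In OCI-AML2 they did so for 0 of the 20 (1.43% of all genes). Of 20 DNA replication genes, MCM3 and MCM5 of the replicative helicase were at -0.14 ± 0.065 and -0.19 ± 0.078, both at an unadjusted p under 0.05 and not called. With depth as a covariate, 6 of the 20 were below 0 at such a p, beside 617 of all 14287 genes tested. The median of the 20 went from -0.093 to -0.18.

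The remaining 7 lists had medians between -0.099 (glycolysis) and 0.010 (ATF4 and amino acid stress genes). The mitochondrially encoded mRNAs had 0 of 13 members at an unadjusted p under 0.05 for the line difference. In MOLM14, 7 of the 13 had AZ2 libraries above all DMSO libraries, where 1.86% of all genes did. MT-CO3, a subunit of cytochrome c oxidase, had changes of 0.17 ± 0.050 in MOLM14 and 0.045 ± 0.050 in OCI-AML2, and a line difference of -0.13 ± 0.071. Ribosome biogenesis, ER chaperone and monocyte and granulocyte lists had 0 members at an unadjusted p under 0.05. The interferon list had 1, IRF9, at -0.44 ± 0.20, the glycolysis list 1, the lactate exporter SLC16A3, at -0.20 ± 0.082, and the ATF4 list 1, the lipoprotein receptor VLDLR, at -0.32 ± 0.094, again near the 5.22% of all genes.

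Single genes outside these lists also fell in OCI-AML2. C6orf223 had the largest line difference below 0 among those just outside the threshold. In OCI-AML2 it fell from 205, 125, 226 and 252 normalized reads to 90.4, 89.4, 63.8 and 94.96, and in MOLM14 its groups of 421 to 559.7 and 419.7 to 528 overlapped. The line difference was -1.20 ± 0.22 (adjusted p = 0.0536 by limma). CECR2, a bromodomain protein of chromatin remodelling complexes, fell in OCI-AML2 from 126, 118, 177 and 165 to 88.8, 58.3, 74.4 and 55.7, and its line difference was -1.15 ± 0.29 (adjusted p = 0.489). Its OCI-AML2 call held in 29 of 35 alternatives.

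Above 0, KCNN4, a calcium-activated potassium channel, rose in OCI-AML2 from 3202, 3038, 3264 and 3333 to 3978, 3692, 4208 and 4217 normalized reads. In MOLM14 it was at 1650.0 to 1719.5 with DMSO and 1609 to 1783 with AZ2, overlapping. The line difference was 0.33 ± 0.083 (adjusted p = 0.489 by limma). PANX1, a membrane channel, had 0.34 ± 0.081, CSPP1, a centrosomal protein, 0.39 ± 0.097, POLG, the mitochondrial DNA polymerase, 0.59 ± 0.15, and ADGRL1, an adhesion receptor, 0.83 ± 0.22. The largest value, 8.29 ± 1.81 for SPECC1L-ADORA2A, is uncertain. This read-through transcript shares exons with its neighbours, had MOLM14 values of 158, 123, 68.7 and 425 with DMSO and 24.0, 0, 0 and 0 with AZ2, and depends on the 1 added to each value (adjusted p = 0.227). With 5 added the value was 5.47. OCI-AML2 values of SPECC1L-ADORA2A were 0, 0, 3.36 and 2.96 with DMSO and 12.4, 12.2, 2.27 and 11.1 with AZ2. No OCI-AML2 DMSO library reached the minimum of 10, so this transcript entered in that line through treated libraries. TNFRSF11A, the receptor of RANK ligand, was at 2.91 ± 0.63 with an adjusted p of 0.226 and MOLM14 values of 30.2 to 39.8 with DMSO and 5.95 to 32.3 with AZ2. Its OCI-AML2 values were 8.60, 2.04, 5.59 and 9.22 with DMSO and 17.1, 8.22, 19.96 and 43.9 with AZ2. All 4 OCI-AML2 DMSO libraries were under the minimum of 10, so it entered in that line through treated libraries and its value is uncertain.

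**Figure D5:**
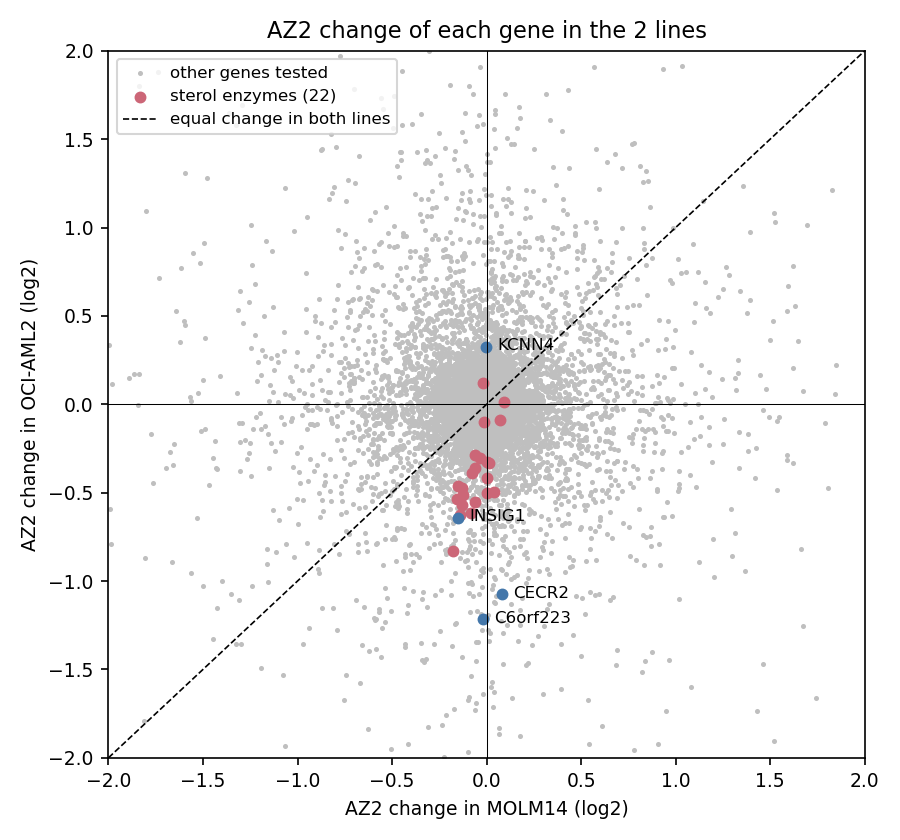
Log2 change with AZ2 in MOLM14 (horizontal) against OCI-AML2 (vertical) for the genes tested, with 22 sterol enzymes in red and 4 other named genes in blue; 122 genes lie outside the axis range. The red points spread downward from 0 and below the dashed line of equal change, with 21 of 22 below it.

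Most genes called in OCI-AML2 had a MOLM14 interval that includes 0, as did most genes tested. Of the 31, the line difference had the sign of the OCI-AML2 change for 31. It had an unadjusted p under 0.05 for 30, where 5.22% of all genes did. The MOLM14 interval included 0 for 27. Over all genes, 4.82% had an unadjusted p under 0.05 in MOLM14, which means an interval without 0. These 31 were chosen by the OCI-AML2 change, which is part of the line difference, so the counts are descriptions. Sterol enzymes made up 12 of the 31. Over all genes, the 95% interval of the line difference lay within -1 and 1 for 10640 (74.5%) and within -0.5 and 0.5 for 8080 (56.6%). For the other genes the interval reached past 0.5 in size.

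With ARM165, the other compound, which shares the DMSO libraries with AZ2, sterol enzymes had changes below 0 in both lines as a median. Its median change over the 22 enzymes was -1.01 in MOLM14 and -0.90 in OCI-AML2. The changes of HMGCS1 were -1.003 ± 0.071 and -0.97 ± 0.071, those of FDFT1 -1.28 ± 0.065 and -1.39 ± 0.065, and those of IDI1 -1.02 ± 0.066 and -0.80 ± 0.066, each in MOLM14 and OCI-AML2 in that order. For INSIG1 they were -1.44 ± 0.060 and -0.32 ± 0.060. C6orf223 and CECR2 had ARM165 changes above 0 in both lines, at 2.17 and 1.94 for C6orf223 and at 2.59 and 1.74 for CECR2, against AZ2 changes below 0 in OCI-AML2. Doses of the 2 compounds are not known to match, and their line differences were not compared by a test.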

How the data were processed

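Per the submitters' processing notes, reads were quantified with kallisto. The libraries were stranded poly(A) mRNA libraries, per the labels' protocols. The genome build, annotation and scaling method are not given in the sources used here. The deposited signal values are normalized estimated reads per gene symbol, in 1 table per line made by the authors, scaled separately, so only changes within a line were subtracted. Dividing by the value of 1 read left 15.1 to 15.8% of values within 0.01 of a whole number in the 16 libraries, so whole counts were not recovered. Estimated reads ranged from 36.1 M to 59.0 M, with 18889 to 19461 symbols above 0.

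Values were taken as log2(value + 1), a scale that understates changes of low genes. The 24 libraries entered a single limma 3.58.1 model with group means (R 4.3.3, variance trend, 18 residual and 5.32 prior degrees of freedom), with Benjamini-Hochberg adjustment over 14287 genes and a threshold of 0.05. Intervals are 95% and unadjusted. Group levels are relative to other genes. On simulated data 38 of 100 line differences of 0.5 and 72 of 100 of 1 were recovered, with 8 false calls. The simulation had independent normal noise with 1 spread per gene and no depth effect. It changed 100 genes at each size at once, which eases the adjusted threshold, so these shares need not hold for the measured data. Alternatives covered pseudocounts, filters, scaling, spread, depth, the replicate block and each left-out library. Named genes were those called, the 8 of smallest p on each side with a group mean of at least 50, PI3K gamma and AKT genes, sterol and SREBP members, 2 of smallest p per other list, up to 20 called in a line, and the 4 just outside the threshold; FADS1, ACACA, FASN, ABCA1, TRAF1 and NFKBIA were added after their values were seen. Members and lists were chosen with earlier results of these data known. Promoter windows are from RefSeq (GRCh38.p14). Some list members are counted but their own values are not reported here. Unused sample columns numbered 0.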

Additional observations from a re-analysis of the deposited data

Results flagged for a closer look

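The line difference in the AZ2 change passed the limma test for HMGCS1 (-0.66), INSIG1 (-0.49), IDI1 (-0.53) and FDFT1 (-0.50), and with depth as a covariate none of the 4 passed.

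In 22 of 336 groups of 4 libraries, 1 library lay far from the other 3 in a named gene, and chance flags about 1 in 20 groups. Among the sterol and SREBP genes, IDI1 had a high OCI-AML2 DMSO library (4764) and a low OCI-AML2 AZ2 library (2806), both in the direction of its fall. FDPS had a low MOLM14 AZ2 library (10358), MSMO1 a high MOLM14 DMSO library (1001) and MVK a low MOLM14 AZ2 library (1438). NSDHL had a high OCI-AML2 AZ2 library (1568) and INSIG2 a high OCI-AML2 DMSO library (749). MMAB had a high MOLM14 DMSO library (3575) and NR1H2 a high MOLM14 AZ2 library (1939).

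In MOLM14 with AZ2, a single library was high for AKT1 (6163), TRIB3 (2071), CDKN1A (6845) and SPECC1L-ADORA2A (24.01). With DMSO in MOLM14, 1 library was low for RICTOR (587), EGR3 (16.5), ECM1 (4184) and TNFRSF11A (30.2). In OCI-AML2, 1 DMSO library was low for ADGRL1 (94.8) and PIK3R5 (1328), and 1 AZ2 library was low for SPECC1L-ADORA2A (2.27) and MCM5 (1751) and high for MT-CO3 (485724).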

How the results depend on the processing

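The number of genes called in the line difference was 4 as reported, 4 to 6 over the alternative pseudocounts, filters, scalings, spread estimates and the fit of 16 libraries, 2 with the replicate block, 0 with depth as a covariate and 0 to 7 over the fits that left out 1 library. Of the sterol enzymes called, the count of 3 became 0 with depth as a covariate and 0 to 4 in the leave-one-out fits. The median line difference of the sterol enzymes ranged from -0.37 to -0.32 over the leave-one-out fits. In OCI-AML2 the count of 31 was 17 with 1 fit per line, 16 with library weights by line and 19 to 36 in the leave-one-out fits. In MOLM14 the count of 0 was 4 with no filter, 1 with library weights by line and 0 to 3 in the leave-one-out fits. The cause was not tested for these changes.

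Same-numbered AZ2 and DMSO libraries had deviations with correlations between -0.035 and 0.067, and 4 of 8 correlated best with their own number. These were MOLM14 replicates 2, 3 and 4 and OCI-AML2 replicate 3. The values do not settle whether the numbers pair the libraries, and the reported fit did not pair them. With the replicate block the line difference had 2 calls, HMGCS1 and FDFT1, OCI-AML2 had 30 and MOLM14 had 0.

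Values near 0 changed sign. With depth as a covariate the line difference became -0.015 for AKT1, -0.0089 for SREBF1, 0.013 for SCAP, 0.069 for MBTPS2 and 0.066 for ZMPSTE24. Over the leave-one-out fits it ranged from -0.12 to 0.11 for SREBF1, -0.29 to 0.14 for PIK3R6, -0.067 to 0.061 for SCAP, -0.053 to 0.11 for INSIG2, -0.11 to 0.012 for AKT2, -0.0027 to 0.090 for AKT1 and -0.12 to 0.035 for MBTPS2. The cause was not tested.

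With 4 libraries per group, the median half-width of the 95% interval of the line difference was 0.31.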
